A study of Mus musculus with 60 samples.

Results

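The liver makes most of the proteins dissolved in blood plasma. A set of 42 genes for such proteins was followed here, chosen by symbol as coagulation, complement and carrier proteins that hepatocytes secrete. All 42 were found among the 54838 genes of the tissue count table. By role, 10 encode carriers and scavengers, 13 clotting factors and their substrates, 4 clotting inhibitors, 5 enzymes or controls of fibrinolysis, and 10 complement proteins.

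The libraries came from mice in which the Rosa26 locus carries a CD74-NRG1 fusion gene, an oncogene that joins CD74 to a ligand of the ErbB receptors. Per the series' design, an FLP-deleter strain (Rosa26Flp) removes a stop cassette early in the embryo, so the fusion is expressed in nearly every tissue. Every library used here is labelled Rosa26CD74-NRG1/Flp, the normal tissues included, so a normal liver is liver of a fusion-bearing mouse and not of a wild type. The labels give no age, sex or treatment. The 42 tissue libraries from 9 mice hold 3 liver tumours, 7 sarcoma libraries of 6 mice, 2 intestine tumour libraries of 1 mouse, 7 normal lungs, 6 normal spleens, 6 normal muscles, 2 normal brains, 1 normal kidney and 8 normal livers. The liver tumour of mouse M00249 is titled only as liver, but its group label is tumour, and that mouse has no normal liver library.

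Hepatocytes secrete albumin and other carriers that hold fatty acids, hormones, metals and haem in the circulation. They also secrete the inactive precursors of the clotting and complement proteases, which are switched on by cleavage in a cascade, together with the inhibitors that confine them. During inflammation, interleukin-6 and related signals raise some of these genes (fibrinogen, haptoglobin, hemopexin, serum amyloid A) and lower others (albumin, transthyretin), which is called the acute phase response.

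RNA was read near the 3' end of transcripts, and values of single libraries are CPM, the usual scaling of a count to the library's total, which lay between 4837440 and 10089572. The upper limit behind a listed 0 is 3 counts, or 0.297 to 0.62 CPM depending on the library, for counting error only. The marker genes of hepatocytes, Alb and Fgg, summed to 7361, 31700 and 72770 CPM in the liver tumours of M00236, M00249 and M00248 and to between 17440 and 43110 CPM in the normal livers. In bulk tissue, fewer hepatocytes and less RNA per hepatocyte cannot be told apart. Replicates are separate mice, and p-values measure the spread between them. Different tissues often came from the same mice, for instance lung and muscle. The main tests do not pair them and treat their libraries as independent.

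Before the comparisons, 2 normal livers stood apart in acute phase genes that are not among the 42. Saa1, serum amyloid A, had 28150 CPM in the normal liver of mouse M00246 and 17980 CPM in that of mouse M00247, against at most 313 CPM in the other 6 normal livers. Both are normal by their labels and stayed in the comparisons, and results without them are given where they differ. The liver of M00247 also had the highest sum of the 7 neutrophil markers, 4248 CPM, against 5.73 to 29.6 CPM in the other 7 normal livers.

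The 42 genes together took 4.67%, 8.19% and 15.2% of all counts in the liver tumours of mice M00236, M00249 and M00248, against 6.84% to 14.6% in the normal livers, with a median of 9.80%. The range of the tumours enclosed that of the normal livers at both ends. Across the tested genes, 6.98% were higher and 3.63% were lower in liver tumours than in normal livers (edgeR quasi-likelihood test, adjusted p under 0.05, 13256 genes). Among the 42 genes, 1 was higher (2.38%) and 3 were lower (7.14%). The median log2 fold change of the 42 was -0.49, beside 0.09 over all genes tested. DESeq2 called 1 higher and 8 lower: Apoa2, Apoh, C8b, F12, Klkb1, Masp2, Plg and Ttr. The shares over all genes above are those of edgeR's fit of all the liver libraries, and none is given for DESeq2 or the fits that follow. Leaving out 1 library at a time gave 0 or 1 higher and 1 to 5 lower. The lower count was 1 without the normal livers of M00235, M00236 or M00245, 2 without those of M00237, M00238 or M00248, and 5 without the normal liver of M00247 or the tumour of M00249; the higher count was 0 without the tumour of M00248. With the mouse as a block, which only M00236 and M00248 inform and which leaves 1 residual degree of freedom, 0 were higher and 0 lower at an adjusted p under 0.05, and 1 and 2 at an unadjusted one.

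**Figure D1:**
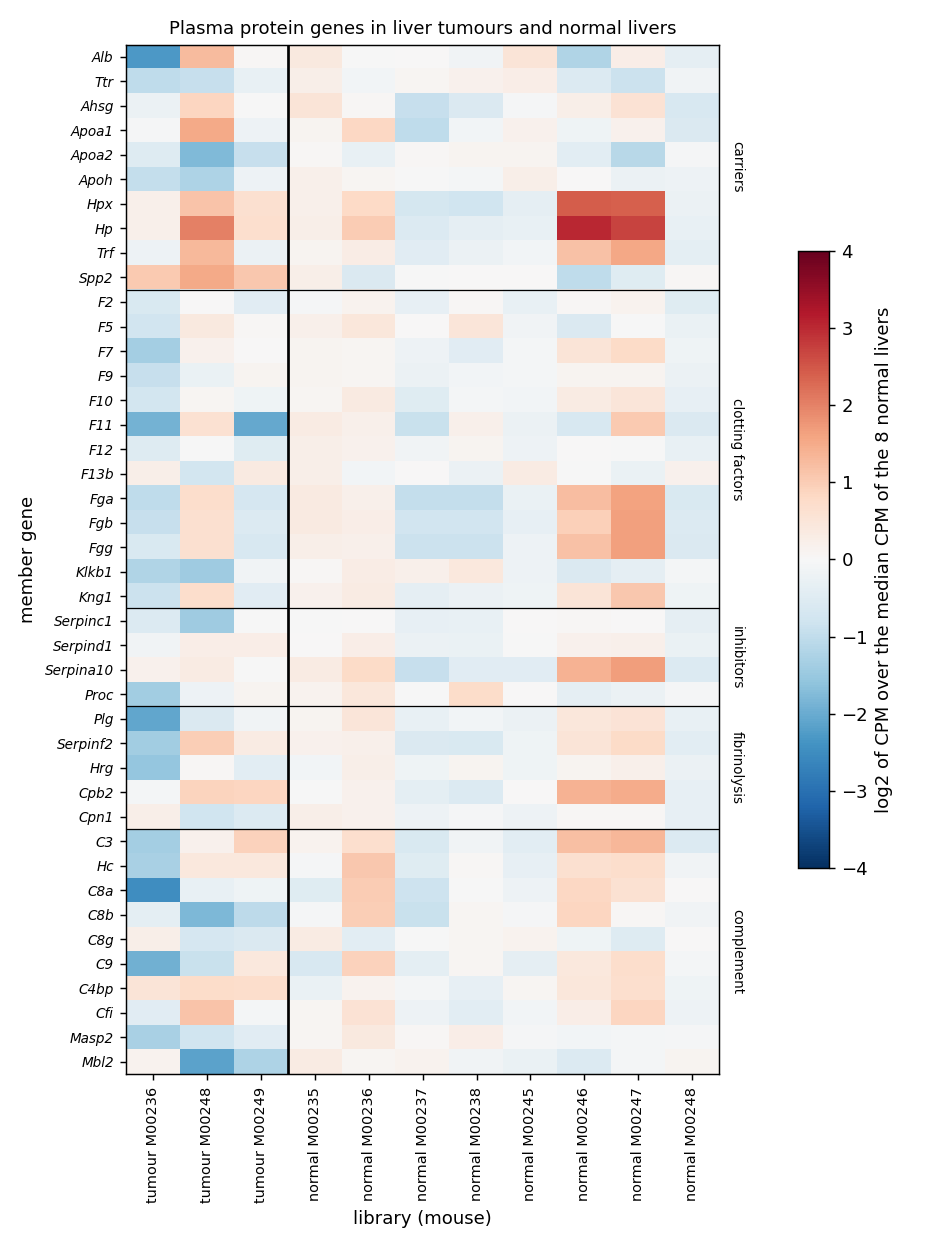
Each cell is the log2 of a gene's CPM in 1 library over the median CPM of the 8 normal livers, with the 3 liver tumours left of the line and the normal livers right of it, and genes grouped by role. The tumour columns differ from each other: that of M00236 is mostly blue (25 of 42 genes below every normal liver), while that of M00248 holds both colours (14 below and 7 above); the normal livers of M00246 and M00247 are red for Hp, Hpx and the fibrinogen genes.

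Among the carriers and scavengers, Spp2, a secreted phosphoprotein found in plasma and bone, was higher in the liver tumours. It had 144, 199 and 147 CPM in the tumours of M00236, M00248 and M00249, against 34.7 to 83.1 CPM in the normal livers, with a median of 69.9 CPM. The groups did not overlap. The log2 fold change was 1.20 (SE 0.25; edgeR adjusted p = 0.01). Without the tumour of M00248 the edgeR adjusted p was 0.052 at a log2 fold change of 1.03.

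Albumin, the main carrier of fatty acids and the protein that holds plasma water in the vessels, went opposite ways in the tumours. Alb had 5963 CPM in the tumour of M00236, 69450 CPM in that of M00248 and 30320 CPM in that of M00249, against 12620 to 41260 CPM in the normal livers, with a median of 29120 CPM. The first lay below every normal liver, the second above every one, and the third within their range. Relative to the normal liver of the same mouse, Alb was at 0.206 times in the tumour of M00236 and at 3.08 times in that of M00248. The group difference was 0.07 on the log2 scale (SE 0.57; edgeR adjusted p = 0.95), and its sign hung on single libraries: it was -0.92 without the tumour of M00248, -0.09 without the normal liver of M00246, -0.01 without that of M00248, and -0.46 with the mouse as a block.

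Apoh, beta-2 glycoprotein I, a phospholipid-binding plasma protein, was the carrier that fell in the group test. It had 584, 484 and 976 CPM in the tumours of M00236, M00248 and M00249, against 969 to 1333 CPM in the normal livers, with a median of 1128 CPM. The first 2 tumours lay below every normal liver, and the third lay at the low end of their range. The log2 fold change was -0.93 (SE 0.25; edgeR adjusted p = 0.035). The call was lost in 6 of the 11 fits that leave out 1 library: those without the tumours of M00236 or M00248, or the normal livers of M00235, M00236, M00237 or M00245, with adjusted p up to 0.119.

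The other carriers did not pass the test. Transthyretin (Ttr), which carries thyroid hormone and retinol-binding protein, had 3244, 3483 and 5344 CPM in the tumours of M00236, M00248 and M00249, against 3594 to 7961 CPM in the normal livers (log2 fold change -0.85, SE 0.35, edgeR adjusted p = 0.14). The pair of high-density lipoprotein genes parted in the tumour of M00248. There, Apoa1 had 12290 CPM, against 2099 to 7563 CPM in the normal livers, while Apoa2 had 2023 CPM, against 3183 to 7414 CPM in the normal livers. Relative to the liver of the same mouse these were 4.29 times for Apoa1 and 0.303 times for Apoa2. Hp and Hpx, haptoglobin and hemopexin, which clear free haemoglobin and haem, and Trf, transferrin, which carries iron, were within the normal range in all 3 tumours; that range includes the livers of M00246 and M00247.

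**Figure D2:**
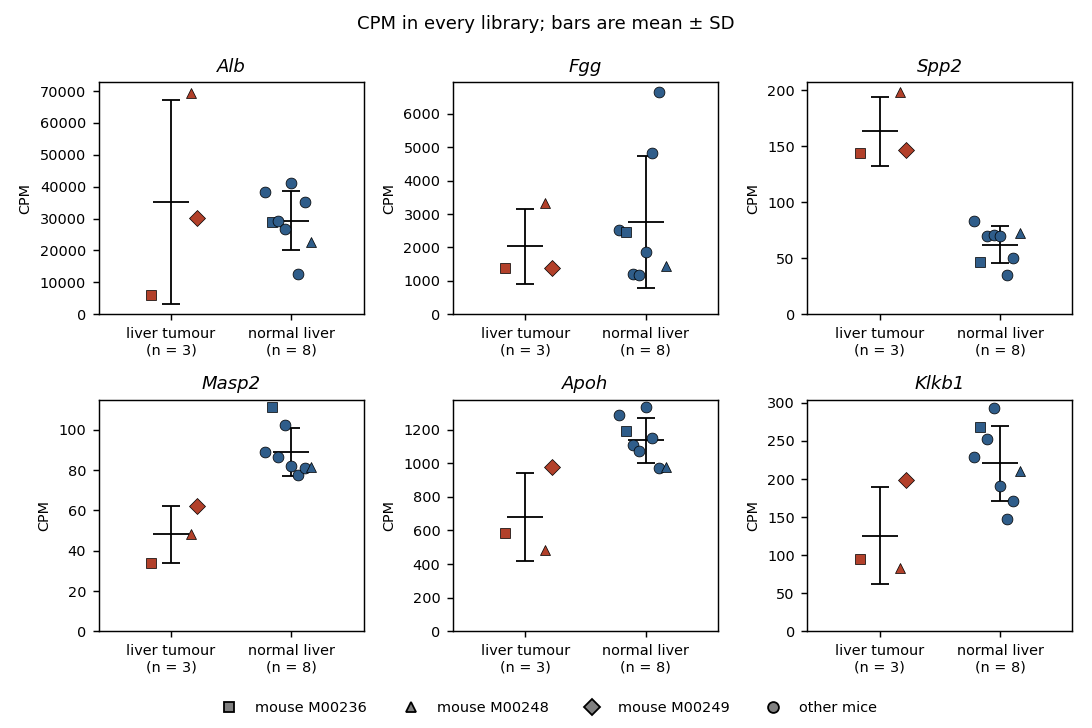
CPM of 6 genes in every liver library (1 point each), with liver tumours (red) left of normal livers (blue), marker shapes for the tumour mice and bars for mean ± SD (n = 3 and n = 8). Spp2 is higher and Masp2 lower in all 3 tumours than in any normal liver, whereas Alb spans 5963 to 69450 CPM in the tumours.

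Of the 13 clotting genes, Klkb1 fell and 12 did not pass the test. Klkb1 encodes prekallikrein, which activates factor XII and releases bradykinin from kininogen. It had 95.6, 83.0 and 199 CPM in the tumours of M00236, M00248 and M00249, against 148 to 293 CPM in the normal livers, with a median of 220 CPM. The tumour of M00249 lay within the normal range, and the other 2 below it. The log2 fold change was -1.02 (SE 0.30; edgeR adjusted p = 0.047), and in 8 of the 11 fits that leave out 1 library it was not called, with adjusted p up to 0.164; those 8 are the fits without the tumours of M00236 or M00248 or the normal livers of M00235, M00236, M00237, M00238, M00245 or M00248.

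The 3 fibrinogen genes were compared in each tumour. Fga, Fgb and Fgg encode the chains of fibrinogen, which thrombin turns into the fibrin of a clot. Relative to the normal liver of the same mouse, Fga, Fgb and Fgg stood at 0.427, 0.434 and 0.57 times in the tumour of M00236. In the tumour of M00248 they stood at 2.50, 2.29 and 2.28 times. In that of M00249, which has no normal liver of its own, they were at 0.633, 0.686 and 0.64 times the median of the normal livers. Fga and Fgb lay below every normal liver in the tumour of M00236, and Fgg within their range. Fgg itself had 1398, 3320 and 1376 CPM in the tumours of M00236, M00248 and M00249, against 1182 to 6655 CPM in the normal livers, with a median of 2150 CPM, so the groups overlapped. Its log2 fold change was -0.60 (SE 0.56; edgeR adjusted p = 0.55).

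The serine protease precursors of the cascade were low in the tumour of M00236. Counting all 13 clotting genes, 11 lay below every normal liver in that tumour (beside 21.8% of all genes tested), 3 in the tumour of M00248 (beside 16.9%) and 3 in that of M00249 (beside 10.6%). Prothrombin (F2) had 731 CPM in the tumour of M00236, against 796 to 1234 CPM in the normal livers. Factor VII (F7), which starts clotting together with tissue factor, had 21.9 CPM there, against 41.1 to 95.9 CPM in the normal livers. Factor XI (F11) had 4.33 and 3.93 CPM in the tumours of M00236 and M00249 but 24.6 CPM in that of M00248, against 8.73 to 33.2 CPM in the normal livers. The tumours thus fell on both sides of the normal median for F11, whose edgeR adjusted p was 0.41.

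None of the 4 clotting inhibitors and none of the 5 fibrinolysis genes passed edgeR's test (2 of each were lower at an unadjusted p under 0.05). DESeq2 called 0 of the inhibitors and 1 fibrinolysis gene, Plg. Antithrombin (Serpinc1), the inhibitor of thrombin and factor X, had 778, 422 and 1128 CPM in the tumours of M00236, M00248 and M00249, against 881 to 1161 CPM in the normal livers. Protein C (Proc), which inactivates factors V and VIII, had 74.1 CPM in the tumour of M00236, against 151 to 319 CPM in the normal livers, and was within that range in the other 2 tumours. Plasminogen (Plg), the precursor of the enzyme that dissolves fibrin, had 361, 1014 and 1383 CPM in the 3 tumours, against 1234 to 2228 CPM in the normal livers (log2 fold change -1.05, SE 0.37, edgeR adjusted p = 0.086). Serpinf2, the inhibitor of plasmin, lay on opposite sides, at 144 CPM in the tumour of M00236 and 739 CPM in that of M00248, against 244.9 to 640 CPM in the normal livers.

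Of the 10 complement genes, Masp2 fell. It encodes the protease that mannose-binding lectin activates to start the lectin pathway. Masp2 had 34.0, 48.2 and 62.2 CPM in the tumours of M00236, M00248 and M00249, against 77.5 to 111 CPM in the normal livers, with a median of 84.4 CPM. No tumour reached the lowest normal liver, and it was the only gene of the 42 below that range in all 3 tumours, as Spp2 was the only one above it in all 3. No share of all genes tested is given for lying below or above in all 3 tumours, so these counts have no background beside them. The log2 fold change was -1.08 (SE 0.20; edgeR adjusted p = 0.005), and it was called in each of the 11 fits that leave out 1 library.

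Mbl2, the mannose-binding lectin that binds Masp2, had 629 CPM in the tumour of M00236, within the normal range of 394 to 717 CPM, but 132 and 244 CPM in those of M00248 and M00249. Its edgeR adjusted p was 0.18. The 3 chains of complement C8, part of the pore that complement inserts in membranes, did not move together. In the tumour of M00236, C8a had 53.9 CPM, against 172 to 610 CPM in the normal livers, while C8g had 418 CPM, within the normal range of 246.9 to 445 CPM. In the tumour of M00248, C8b had 71.9 CPM, against 137 to 496 CPM in the normal livers, while C8a stood at 0.808 times its normal median, within its normal range. C8b was the member nearest to the threshold among those not called (log2 fold change -1.32, SE 0.41, edgeR adjusted p = 0.055).

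C3, the protein on which the complement pathways converge, had 785 CPM in the tumour of M00236, below the normal range of 1322 to 5032 CPM, and 2247 and 3836 CPM in the other 2 tumours. C4bp, which holds the classical pathway in check, had 392, 456 and 445 CPM in the tumours of M00236, M00248 and M00249, against 220 to 440 CPM in the normal livers, and was not called (edgeR adjusted p = 0.35).

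Set beside the normal livers 1 tumour at a time, with no test, the 3 tumours differed. In the tumour of M00236, 25 of the 42 genes lay below every normal liver (59.5%, beside 21.8% of all genes tested) and 1 above (2.38%, beside 30.6%). In the tumour of M00248, 14 lay below (33.3%, beside 16.9%) and 7 above (16.7%, beside 31.6%): Ahsg, Alb, Apoa1, C4bp, Cfi, Serpinf2 and Spp2. In the tumour of M00249, 9 lay below (21.4%, beside 10.6%) and 4 above (9.52%, beside 33.5%). Alb, Cfi, F13b, F9 and Serpinf2 lay above the normal range in 1 tumour and below it in another, F9 by a margin smaller than the rounding of its 278 CPM in the tumour of M00249. For 24 of the 42 genes (57.1%, beside 44.7% of all genes tested), the highest tumour over the lowest was a larger ratio than the same ratio among the 8 normal livers; for Alb the ratios were 11.7 among the tumours and 3.27 among the normal livers.

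Lists of markers for other cell types were read in the same libraries. Of the 7 cholangiocyte markers, genes of bile duct cells, 3 were tested and Sox9 and Spp1 were higher (edgeR). Sox9 had 131 and 119 CPM in the tumours of M00248 and M00249 but 6.01 CPM in that of M00236, against 7.57 to 31.2 CPM in the normal livers. The summed cholangiocyte markers were 40.4, 1126 and 285 CPM in the tumours of M00236, M00248 and M00249, against 21.1 to 163 CPM in the normal livers, so the tumour of M00236 was within the normal range. Spp1 alone gave 31.5, 992 and 142 CPM of these tumour sums. Cftr was at 0 in the tumours of M00236 and M00248. The 6 erythroid markers summed to 17710 CPM in the tumour of M00236, above the 984 to 10450 CPM of the normal livers, and to 1974 and 5933 CPM in those of M00248 and M00249; 6 of 6 did not pass the test. Of the 8 fibroblast and stellate cell markers 3 were higher, with sums of 370, 509 and 893 CPM in the 3 tumours, against 273 to 522 CPM in the normal livers. Of 7 endothelial markers 2 were lower, and of 7 tested lymphocyte markers 1 was higher. The 8 macrophage markers did not pass, and their sums of 356, 291 and 777 CPM in the tumours were within the 195 to 1309 CPM of the normal livers. The part of these cells in the levels of the 42 genes was not tested.

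Some other genes of the same systems gave larger fold changes than those called among the 42. Of 16 tested coagulation and fibrinolysis genes outside the 42, 4 were higher and 1 lower in the tumours, and 3 of the higher ones are described. Plat, the tissue plasminogen activator, had 38.7, 5.95 and 3.93 CPM in the tumours of M00236, M00248 and M00249, against 0 to 0.687 CPM in the normal livers (edgeR adjusted p = 0.00084); those livers are at the limit of counting, so no fold is given. Plau, the urokinase activator, had 4.09, 2.48 and 3.55 CPM in the 3 tumours, against 0.659 to 1.58 CPM in the normal livers (log2 fold change 1.66, SE 0.37, edgeR adjusted p = 0.014). Anxa2, a cell surface receptor for plasminogen and its tissue activator, had a log2 fold change of 3.88 (SE 0.46; edgeR adjusted p = 0.00041). The lower one, named after its values were seen, was Proz, protein Z, at -0.84 (SE 0.21; edgeR adjusted p = 0.023). Of the 22 tested complement genes outside the 42, 22 did not pass (edgeR; 1 higher and 2 lower at an unadjusted p under 0.05).

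Of 33 carrier and protease inhibitor genes outside the 42, 3 were higher and 7 lower in the tumours. Apoc2, the cofactor of lipoprotein lipase, had 464, 5150 and 329 CPM in the tumours of M00236, M00248 and M00249, against 176 to 264 CPM in the normal livers (log2 fold change 3.01, SE 0.57, edgeR adjusted p = 0.006). Apoa5, which lowers plasma triglycerides, fell by 2.33 (log2, SE 0.53; edgeR adjusted p = 0.015). Serpina1c and Serpina1d, alpha-1 antitrypsin genes, fell by 2.05 and 2.08 (log2, SE 0.42 and 0.37; edgeR adjusted p = 0.0089 and 0.0044). Serpina1c and Serpina1d are near-identical copies in the mouse, so the split of reads between them is uncertain. Of 19 acute phase genes, none of them among the 42, 1 was lower: Saa4, a constitutive serum amyloid A, had 44.5, 117 and 73.2 CPM in the tumours of M00236, M00248 and M00249, against 123 to 492 CPM in the normal livers (log2 fold change -1.81, SE 0.48, edgeR adjusted p = 0.03).

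The normal livers of M00246 and M00247 were read against the other 6 for the same 42 genes, as a description of libraries that were singled out by Saa1. In 13 genes (31.0%, beside 6.07% of all genes tested) both livers lay above the other 6, and in 5 (11.9%, beside 7.74%) both lay below. These 2 livers also had the lowest mitochondrial shares of the 8, 9.79% and 12.1%, against 14.5% to 20.1% in the other 6. Their cholangiocyte sums were the highest, 90.8 and 163 CPM, against 21.1 to 41.3 CPM in the other 6, and the macrophage sum was highest in M00247. Spp1 made most of these cholangiocyte sums, with 69.2 and 128 CPM, against 8.06 to 16.7 CPM in the other 6. Sox9 had 15.7 CPM in M00246, within the 7.57 to 18.35 CPM of the other 6, and 31.2 CPM in M00247. Krt7 and Cftr were at 0 in M00246, and Krt19 was at 0 in M00247. The part of these in the levels was not tested. Hp had 7031 and 5628 CPM in the livers of M00246 and M00247, against 596 to 1750 CPM in the other 6. Hpx had 15570 and 15110 CPM, against 1653 to 5043 CPM in the other 6. Cpb2, a carboxypeptidase that protects fibrin from plasmin, had 740 and 794 CPM, against 194 to 317 CPM in the other 6.

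The fibrinogen genes were all among the 13. Fgb had 10070 and 16160 CPM in the livers of M00246 and M00247, against 3054 to 6609 CPM in the other 6, and Fga had 3981 and 5157 CPM, against 885 to 2168 CPM. Serpina10, the inhibitor that works with protein Z, had 410 and 503 CPM, against 82.0 to 266 CPM in the other 6. Trf, C3, Kng1 (kininogen), F7, C4bp and Serpinf2 completed the set with Fgg. The 5 genes with both livers lowest were Ttr, Apoa2, Proc, Klkb1 and Masp2: Ttr had 4530 and 3594 CPM, against 5950 to 7961 CPM in the other 6. Alb was lowest in the liver of M00246, at 12620 CPM, while that of M00247 had 35210 CPM, within the 22550 to 41260 CPM of the other 6.

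**Figure D3:**
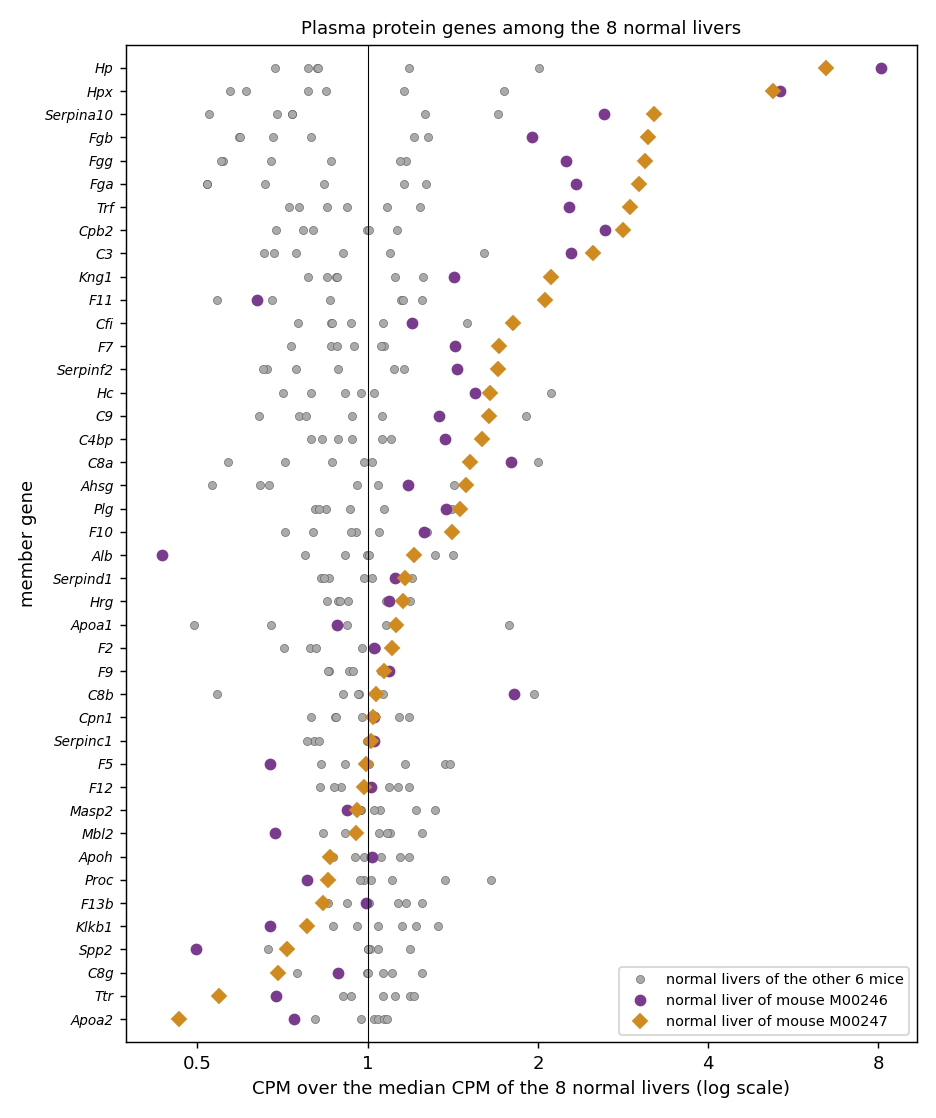
Each point is a gene's CPM in 1 normal liver over the median of the 8 normal livers, on a log scale, with the livers of M00246 and M00247 marked and genes ordered by the liver of M00247. Hp, Hpx, Serpina10 and the fibrinogen genes lie at the top with both marked livers to the right of the other 6, and Ttr and Apoa2 lie at the bottom.

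Without these 2 livers the tumours were compared with 6 normal livers. Of the genes followed here, 1 was higher (Spp2) and 5 were lower (Apoa2, Apoh, Klkb1, Masp2 and Ttr). No share of all genes tested is given for this fit, so these counts have no background beside them. The tumour levels of Saa1 were 37.6, 244.7 and 57.0 CPM in the tumours of M00236, M00248 and M00249, none above the 313 CPM that is the highest of those 6.

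Stretches of promoters are shown for genes of both behaviours, since acute phase genes are known to be driven by C/EBP and STAT proteins and liver genes by HNF1. The window was the 250 bases before each gene's start in RefSeq on build GRCm38.p6, which held an entry for 34 of the 42 genes, searched on both strands. The letters TTGCNNAA (C/EBP type) were in 12 of these 34 promoters (35.3%), beside 10.8% of the 27025 genes in that set. TTCNNNGAA (STAT type) was in 5 of 34 (14.7%, beside 8.13%), and the HNF1-type motif was in 2 of 34 (5.88%, beside 0.111%). Of the 13 genes highest in both livers, 9 had a promoter and 4 of these held TTGCNNAA, against 8 of 25 for the other members. Such matches describe the letters, not binding. TGTTTGC (forkhead type) was in 5 of 34 (14.7%, beside 4.93%). Printed 5' to 3' along the gene, the letters of the motif or of its reverse complement are in capitals, and none of these stretches' motifs overlaps another.
Fga, chr3:83026007-83026036, plus strand, C/EBP type: gctacagagaaTTGAGCAAgagtttctggg
Fga, chr3:83025909-83025938, plus strand, STAT type: aggcccccatTTCCTGGAAtgtagattccc
Fgb, chr3:83049925-83049954, minus strand, C/EBP type: ctgggaagatgTTGCTCAAatgataaagca
Fgb, chr3:83050006-83050035, minus strand, STAT type: gactcaatgaTTCGAGGAAccccctgtgtc
Hpx, chr7:105600298-105600327, minus strand, C/EBP type: tggctggaaatTTGCTGAAgggggtagggg
C3, chr17:57228163-57228192, minus strand, C/EBP type: aggaaactatgTTGCGAAAttttgggcagt
Klkb1, chr8:45294994-45295023, minus strand, C/EBP type: cccatggattcTTCTGCAAagggacccatt
Masp2, chr4:148602481-148602510, plus strand, STAT type: catgggtagaTTCCCAGAAtccttggtttg
Alb, chr5:90460830-90460859, plus strand, HNF1 type: taagtatgGTTAATGATCTACagttattgg
C4bp, chr1:130661661-130661690, minus strand, HNF1 type: tctagtctGTTAATCATTCACcgggacaga
Fga and Fgb, both highest in the livers of M00246 and M00247, hold both the C/EBP and the STAT type. Klkb1 and Masp2, both lowest there, hold 1 of the types each, so these letters were found on both sides.

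Outside the liver most of the 42 genes were far under their liver level, with exceptions described for lung, spleen, brain, kidney and intestine tumour. In a library, the median of the 42 genes was between 0.184% and 1.05% of their median CPM in normal livers. Alb had 41.0 to 375 CPM in these libraries with a median of 57.7 CPM, against 12620 to 41260 CPM in the normal livers. Against lung, spleen and muscle, 42 of 42 genes were higher in normal liver in each contrast (edgeR adjusted p under 0.05), beside 28.4%, 30.7% and 29.2% of all genes; they were chosen as liver genes and passed the filter on low counts through the liver, so this direction is no result.

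Ratios to Alb were compared with those in liver. Over the summed counts of a tissue, a gene's ratio to Alb lay within the range of the 8 normal livers for 35 of the other 41 genes in sarcoma, 34 in muscle, 31 in brain, 30 in spleen, 26 in intestine tumour, 25 in lung and 21 in kidney. The range of the 8 livers is wide, since it includes that of M00246 with its low Alb and high Hp and Hpx. No share over other genes is given for these ratios, so the counts have no background beside them. The other tissues did not follow the liver of the same mouse in Saa1. In mouse M00246, Saa1 stood at 2.23 times Alb in the liver, but at 0.123 times in the lung, 0.0496 times in the spleen and 0.0547 times in the muscle. Saa1 had 5.05 to 9.64 CPM in those 3 tissues of M00246, against 28150 CPM in its liver. Where these counts arose was not tested.

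**Figure D4:**
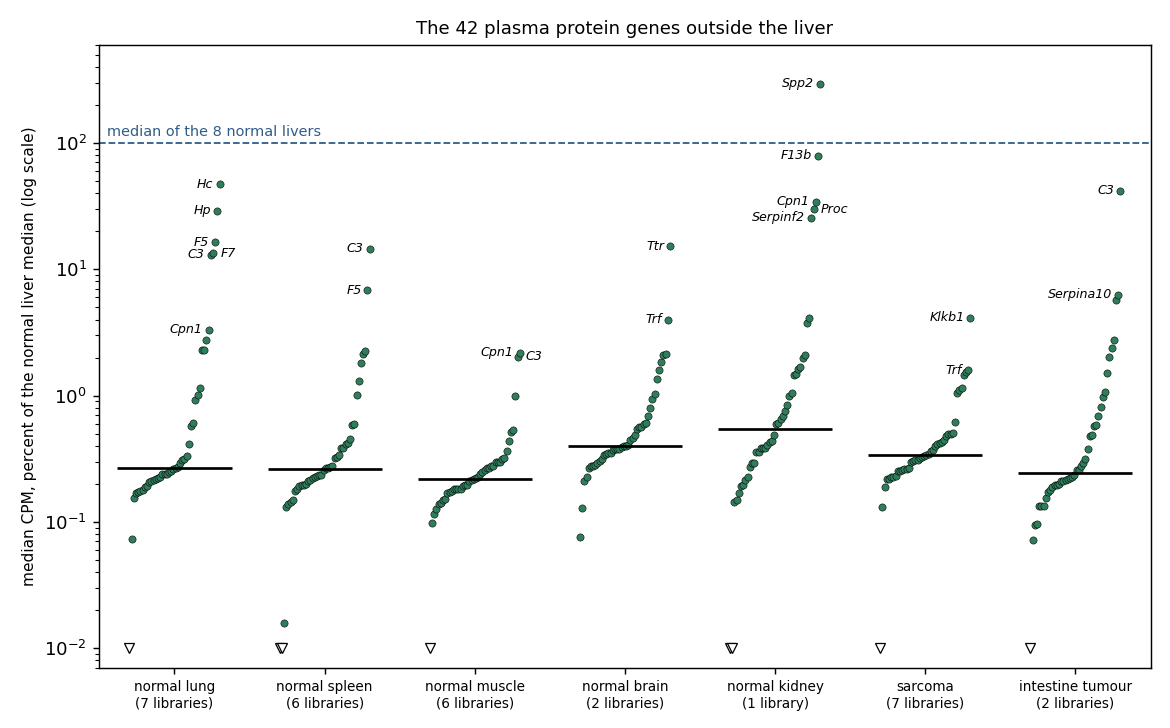
Each point is 1 of the 42 genes: its median CPM in a tissue as a percent of its median CPM in the 8 normal livers (dashed line), on a log scale, with black bars for the median gene and open triangles for genes with a median of 0. The median gene lies between 0.22% and 0.543% in each tissue, and the named genes stand above the rest.

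Libraries differed in these low levels. The lung of M00238, the spleen and muscle of M00246 and the sarcomas M00235 and M00245_T1 had the most Alb of their tissue, at 256, 194, 92.3, 153 and 375 CPM. Comparisons between tissues were fitted without any liver library, on 17249 genes, and 32 of the 42 passed the filter there. Medians and ranges are CPM of single libraries. Fold changes come from the fit after TMM scaling, so they can differ from these CPM in size or sign. Alb and Fgg had medians of 55.9 and 5.16 CPM in lungs, and of 53.4 and 3.62 CPM in muscles. The median of their fitted log2 fold changes of lung over muscle was -0.23.

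In lung, 7 of the 32 genes were higher than in muscle (beside 32.7% of all genes tested), and 0 were lower (beside 23.6%; 1 at an unadjusted p under 0.05, and 1, Ahsg, by DESeq2). The largest difference was in Hc, which encodes complement C5. It had 117 to 255 CPM in the 7 lungs, with a median of 134 CPM, against 0.478 to 1.43 CPM in the 6 muscles, and the groups did not overlap. The log2 fold change was 6.74 (SE 0.39; edgeR adjusted p = 3.5e-13). The lung median was 46.9% of the 286 CPM of normal livers.

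Hp had 63.0 to 541 CPM in lungs, with a median of 253 CPM, against 2.99 to 5.32 CPM in muscles (log2 fold change 5.16, SE 0.69, edgeR adjusted p = 5.1e-07). F5, factor V, the cofactor that speeds thrombin formation, had 45.9 to 126 CPM in lungs, against 1.99 to 3.11 CPM in muscles (log2 fold change 4.25, SE 0.43, edgeR adjusted p = 5.7e-09). F7 had 3.20 to 9.07 CPM in lungs, against 0 to 0.907 CPM in muscles. For Hp, F5 and F7 the lungs did not overlap the muscles. F7 passed the filter on low counts through the lungs, since muscles, spleens and sarcomas had at most 0.907, 1.08 and 1.45 CPM. The direction of F7 is therefore no result. C3, Trf and F10 (factor X) were also higher, with log2 fold changes of 1.62, 1.96 and 3.18 (SE 0.28, 0.31 and 0.69; edgeR adjusted p = 2.3e-05, 6.5e-06 and 0.00029). All 7 were called in each of the 25 fits that leave out 1 library; without the lung of M00247 the log2 fold change of F10 was 2.43. Without the lung of M00238, which had the most Alb of the lungs, 8 genes were lower in lung than in muscle.

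In spleen, 5 genes were higher than in muscle (beside 31.1%) and 2 lower (beside 30.2%). C3 had 128 to 366 CPM in the 6 spleens, with a median of 294 CPM, against 31.7 to 81.5 CPM in muscles (log2 fold change 2.00, SE 0.29, edgeR adjusted p = 1.5e-06). F5 had 11.4 to 102 CPM in spleens, with a median of 35.3 CPM, against 1.99 to 3.11 CPM in muscles (log2 fold change 3.61, SE 0.43, edgeR adjusted p = 5.8e-08). Trf, F10 and Hp were the other higher ones. Hp had 135 CPM in the spleen of M00247 and 8.03 to 22.03 CPM in the other 5, against 2.99 to 5.32 CPM in muscles, with a log2 fold change of 2.55 (SE 0.64; edgeR adjusted p = 0.0012). With the mouse as a block, Hp was not called (edgeR adjusted p = 0.087).

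The spleen and lung of M00247 held the most neutrophil RNA. The 7 neutrophil markers summed to 20530 CPM in that spleen and 138 to 1666 CPM in the other 5, and to 6350 CPM in that lung and 150 to 723 CPM in the other 6. F10 had 26.8 CPM in that spleen and 1.62 to 8.16 CPM in the other 5, and 36.1 CPM in that lung and 5.08 to 7.66 CPM in the other 6. F5 had 102 CPM in that spleen and 11.4 to 47.5 CPM in the other 5. The part of neutrophils in these levels was not tested. In that lung F5 and Hp did not stand out: F5 had 116 CPM, within the 45.9 to 126 CPM of the other 6, and Hp had 190 CPM, within their 63.0 to 541 CPM. Without the spleen of M00247, Hp, F5 and F10 had log2 fold changes of 1.00, 3.06 and 2.56 between spleen and muscle (SE 0.41, 0.35 and 0.63; edgeR adjusted p = 0.039, 4.6e-08 and 0.0011), against 2.55, 3.61 and 3.36 with it.

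Cpn1, the catalytic chain of carboxypeptidase N, which inactivates bradykinin and complement fragments, and Plg were the lower ones in spleen. Cpn1 had 0.345 to 1.24 CPM in spleens, against 2.76 to 8.67 CPM in muscles (log2 fold change -2.98, SE 0.36, edgeR adjusted p = 7.6e-08), and the groups did not overlap. In lung Cpn1 had 3.65 to 8.81 CPM.

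Set against spleen, lung was higher in 6 genes (beside 29.4%) and lower in 0 (beside 23.5%; 0 at an unadjusted p under 0.05 in edgeR, and 0 by DESeq2). Hc had 117 to 255 CPM in lungs, against 0.461 to 3.17 CPM in spleens (log2 fold change 6.51, SE 0.38, edgeR adjusted p = 5.2e-13). F7, Cpn1 and Hp followed with log2 fold changes of 3.83, 2.50 and 2.61 (SE 0.76, 0.35 and 0.60; edgeR adjusted p = 0.00013, 1.2e-06 and 0.00067). Without the spleen of M00247 the log2 fold changes of F7 and Hp were 4.54 and 4.17. F7 passed the filter on low counts through the lungs, so its direction here is no result either. Plg and Serpind1 (heparin cofactor II) were called at edgeR adjusted p = 0.023 and 0.04. Both lost the call with the mouse as a block (0.072 and 0.058), and Plg also without the lung of M00238 or the spleens of M00246 or M00249, and Serpind1 without any of 4 lungs (M00238, M00245, M00246, M00248) or 4 spleens (M00245, M00246, M00247, M00248). Without the lung of M00238, 4 genes were higher and 3 lower in lung than in spleen.

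**Figure D5:**
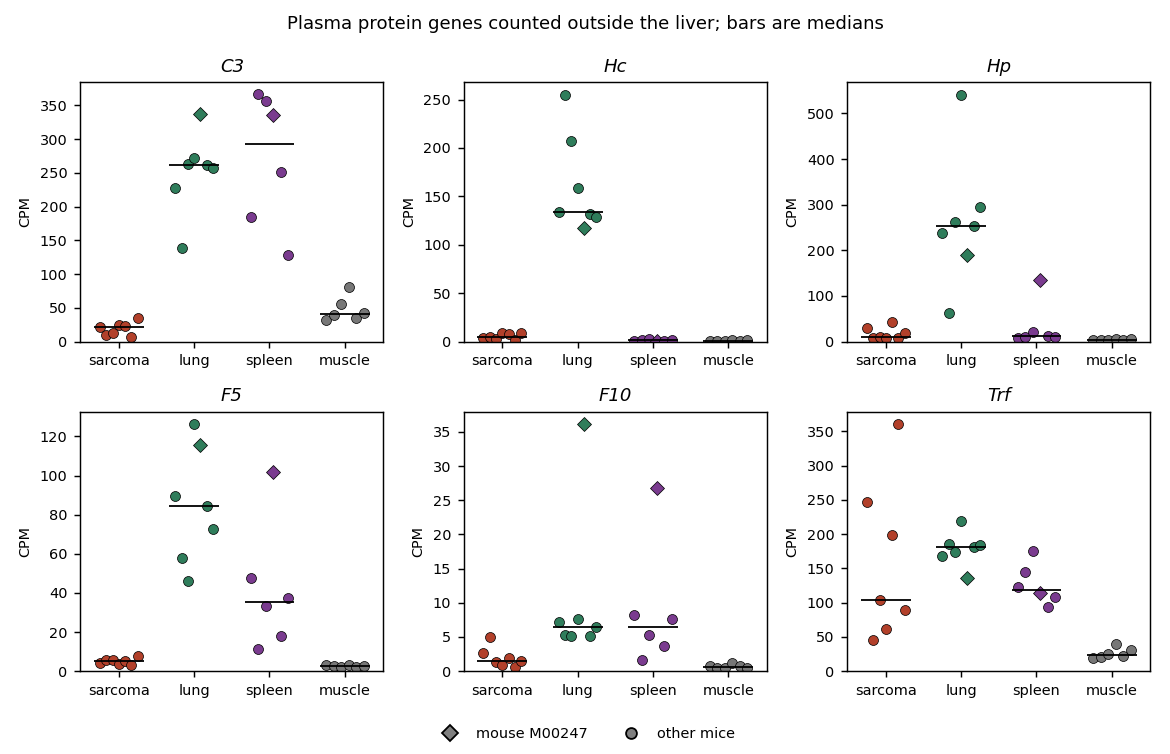
CPM of 6 genes in sarcomas, lungs, spleens and muscles, 1 point a library, with bars for medians and diamonds for mouse M00247. Hc and Hp are high in lungs (117 to 255 and 63.0 to 541 CPM), C3 in lungs and spleens, and the spleen of M00247 stands above the other spleens for Hp, F5 and F10.

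Sarcomas, tumours that are read here against normal muscle, were higher than muscle in 3 genes (beside 30.7%) and lower in 2 (beside 25.4%). C3 had 7.45 to 35.0 CPM in the 7 sarcoma libraries, with a median of 22.3 CPM, against 31.7 to 81.5 CPM in muscles. The log2 fold change was -2.21 (SE 0.30; edgeR adjusted p = 7.3e-07), and 1 sarcoma library, that of M00248, reached into the range of the muscles. Cpn1 had 0.452 to 1.03 CPM in sarcomas, against 2.76 to 8.67 CPM in muscles, with no overlap (log2 fold change -3.68, SE 0.37, edgeR adjusted p = 6.4e-09). Trf had 44.9 to 361 CPM in sarcomas, against 18.6 to 39.6 CPM in muscles (log2 fold change 1.44, SE 0.31, edgeR adjusted p = 0.00037). Hc had 2.15 to 9.12 CPM in sarcomas, against 0.478 to 1.43 CPM in muscles (log2 fold change 1.74, SE 0.37, edgeR adjusted p = 0.00025). Serpinc1 was called at a log2 fold change of 0.74 (SE 0.26; edgeR adjusted p = 0.019), but not without the sarcoma of M00235 or with the mouse as a block (adjusted p = 0.071). The cell markers of the 2 tissues differ widely: skeletal muscle markers summed to 22.8 to 4050 CPM in sarcomas, against 15450 to 29160 CPM in muscles, and fibroblast and stellate cell markers to 7736 to 31670 CPM in sarcomas, against 1230 to 1575 CPM in muscles. Neural markers summed to 923 to 3741 CPM in sarcomas, against 67.5 to 134 CPM in muscles, and macrophage markers to 151 to 761 CPM in sarcomas, against 82.0 to 182 CPM in muscles. Their part in these differences was not tested. Without the spleen of M00247, which enters the shared fit, 5 genes were higher in sarcoma, and without the sarcoma of M00235, 2 were.

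Brain, kidney and intestine tumour have 1 or 2 libraries, so their values are given without a test. Ttr, which the choroid plexus also makes, had 382 and 1623 CPM in the brains of M00237 and M00238, and their median was 15.2% of the median of normal livers. Trf had 251 and 270 CPM in the brains. In both brains Alb was low, at 121 and 57.0 CPM.

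In the kidney of M00249, 5 of the 42 genes exceeded 5% of their liver median. Spp2 had 206 CPM there, which is 294% of its median in normal livers and more than the 144 to 199 CPM of the liver tumours. F13b, the carrier chain of factor XIII, had 105 CPM (79.5% of the liver median), Cpn1 70.0 CPM (34.2%), Proc 57.7 CPM (29.95%) and Serpinf2 96.3 CPM (25.6%). F11 and F12 had 0 counts in that library.

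In the 2 intestine tumour libraries of M00247, C3 had 693 and 990 CPM, which is 41.8% of the liver median for their median. F10 had 20.4 and 12.6 CPM. Serpina10 had 2.00 and 17.7 CPM, so the 2 libraries of this mouse differed. Cpn1 had 0.267 and 0.118 CPM, against 70.0 CPM in the kidney.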

How the data were processed

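RNA came from cryosections of fresh-frozen tissue and was sequenced from the 3' end with a QuantSeq library kit, per the labels' protocols. The values used are expected counts per gene as deposited by the authors in 1 table of 42 libraries; for that table the sources used here name no aligner, counter or genome build. The deposited CPM values were not used, and CPM was recomputed from the counts. The design had assumed whole counts: 8.35% of the values in the table were not whole, and rounding moved the total by 0.00054%. Levels of different genes were set side by side only as ratios to Alb, read against the same ratio in liver.

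Genes were kept by filterByExpr (minimum count 10) and tested with edgeR 4.0.16 (quasi-likelihood F test, TMM scaling) in R 4.3.3, with Benjamini-Hochberg adjustment over all genes tested and a threshold of 0.05. DESeq2 1.42.0 was an alternative. Means ± SD are of TMM-scaled CPM, whereas a single library's value is CPM without that scaling. Mouse M00245 gave 2 sarcoma libraries, which the fits took as 1 sum. The procedure was tested on simulated data. Tumour and normal liver pair by animal in M00236 and M00248, whose deviations from the group means correlated at -0.15 and -0.137. No 2 libraries of a group agreed within counting noise: over all pairs the lowest chi-square per degree of freedom was 11.7.

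Alternatives were RLE scaling, TMM factors without the 42 genes, no filter, a minimum mean of 5 CPM, the mouse as a block, DESeq2, leaving out mitochondrial and haemoglobin genes, and leaving out each library in turn. Leaving out the normal livers of M00246 and M00247, the libraries with the most albumin, or 1 library of the fit without liver was chosen after seeing the data. The 42 genes and the other lists were chosen with earlier results of these data known. Values in every library are described for Alb, Fgg and genes called between liver tumours and normal livers. They are also described for genes above 5 CPM in every library of another tissue. Outside the 42, some genes were named after their values were seen, and up to 4 genes per list with the smallest p are named. The values of 1 such gene are not reported here. Promoter sequences are from RefSeq, build GRCm38.p6.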

Additional observations from a re-analysis of the deposited data

Results flagged for a closer look

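Among 64 values looked at in groups of 4 to 10 libraries, 6 had a library far from the others of its group; chance gives about 1 in 20. In the normal livers, F11 was highest in mouse M00247, at 33.21 CPM. For the median percent of the liver level over the 42 genes, the lung of M00238 stood apart at 0.9127%, the spleen of M00246 at 0.6084% and the muscle of M00246 at 0.4129%. F10 in lungs was highest in M00247, at 36.14 CPM. Hp in spleens was highest in M00247, at 135.0 CPM. That lung and that spleen also had the highest sums of neutrophil markers, 6350 and 20530 CPM, whose part in these values was not tested.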

How the results depend on the processing

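Of the recomputed values, 567 kept their direction and side of the threshold or moved less than the limits set, 26 lost a call, 22 moved and 6 changed sign. Between liver tumours and normal livers, the replicate block (mouse) left 0 genes higher and 0 lower, DESeq2 called 8 lower, and leaving out the normal livers of M00246 and M00247 gave 5 lower. Leaving out 1 library gave 0 to 1 higher and 1 to 5 lower. Alb changed sign to -0.46 and Fgg to 0.061 (log2) with the block, and Alb to -0.067 without those 2 livers; leaving out 1 library gave Alb -0.92 to 0.56, with -0.09 and -0.01 without the normal livers of M00246 and M00248. In lung against muscle, 1 gene was lower under RLE scaling, the block and DESeq2, and 6 without the libraries with the most albumin; without 1 library the count ran over 0 to 8. In lung against spleen, 3 were lower without the libraries with the most albumin, and 0 to 3 without 1 library. In sarcoma against muscle, 4 were lower without those libraries, and 2 to 5 were higher without 1 library. The causes were not tested. The shares over all genes for these changed settings are not reported here, so their counts have no background beside them. The block between tumours and livers has 1 residual degree of freedom, so a lost call there says little. Genes under 1 CPM outside the liver rest on few counts.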
